A study of Homo sapiens with 6 samples.

Results

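The genes of tight junctions, desmosomes, nectin contacts and cell polarity were examined in PANC-1 cells after silencing of ZDHHC20. A list of 39 such genes was matched by symbol to the deposited table of 27394 genes, where all 39 were found. Of these, 38 reached a mean of 1 across the 6 libraries and were tested together with every other gene that did, 22189 in all. The remaining gene, NECTIN4, was listed at 0 in all 3 control libraries and at 1.06, 0 and 0.962 in the silenced ones.

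PANC-1 is an established human pancreatic cancer cell line, and ZDHHC20 is an enzyme that attaches palmitate to proteins. By their titles, one group received a control shRNA (shControl) and the other an shRNA against ZDHHC20 (shZDHHC20). Each group had 3 RNA-seq libraries, and no other treatment or genotype was named. The sources used here give neither which of the study's shRNAs was used nor whether the 3 silenced libraries share 1 construct, and both groups come from 1 cell line. The labels number the replicates but do not call them separate cultures, so the p-values measure the spread between these libraries, which may be technical. The deposited columns carry the names siZDHHC20 and NC, which were paired with the shZDHHC20 and shControl titles through the group they name and their number.

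Tight junctions seal the space between epithelial cells. They are built from membrane proteins such as claudins and occludin and from plaque proteins that tie them to actin. Desmosomes hold cells together through desmosomal cadherins, which armadillo proteins and plakins couple to keratin filaments, and nectins start contacts through afadin. The Crumbs and Par complexes specify the apical side of a cell and the Scribble complex the basolateral side, and the loss of such contacts is a hallmark of epithelial-mesenchymal transition in carcinoma.

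The values are normalized counts, that is, counts per gene scaled by a single factor for each library, and they sum to between 17083277 and 18007664 per library. ZDHHC20 was at 42.6% of its control mean (log2 fold change -1.23, adjusted p = 4.36e-07, limma). The library shZDHHC20 replicate 2 stood apart from the others of its group. Over the 4136 strongest genes (mean of 1000 or more), the SD of the log2 difference was 0.0722 between shZDHHC20 replicates 1 and 3, and 0.178 and 0.198 between replicate 2 and these. The control libraries differed from each other by 0.0674 to 0.0718, and from the silenced libraries by 0.211 to 0.24. Results that depend on replicate 2 are given with and without it.

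Of the 38 genes tested, 9 were higher in shZDHHC20 at an adjusted p under 0.05, 3 were lower and 26 did not pass. The higher genes were CRB3, PKP3, PPL, PATJ, CLDN7, DSG2, LLGL2, PERP and AFDN, and the lower genes were CGN, NECTIN1 and PARD6B. Among all genes tested, 11.5% passed (4.61% higher and 6.84% lower), against 31.6% of the junction and polarity genes. The share is higher for strongly expressed genes. In the 10908 whose mean reached 100, 21.7% passed (8.41% higher and 13.3% lower). Of the 33 junction and polarity genes with such a mean, 33.3% passed, 8 higher and 3 lower. The median log2 fold change of these 33 was 0.01, and that of the 10908 was -0.01. The 3 libraries of one group lay wholly above or below those of the other for 14 higher and 5 lower genes of the 38, where 13.8% and 14.8% of all genes tested did so. Of the 33 genes, 11 lay wholly higher and 5 wholly lower, beside 18.8% and 23.9% of the 10908. Every complex on the list with more than 2 genes had at least 1 member that did not pass.

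**Figure D1:**
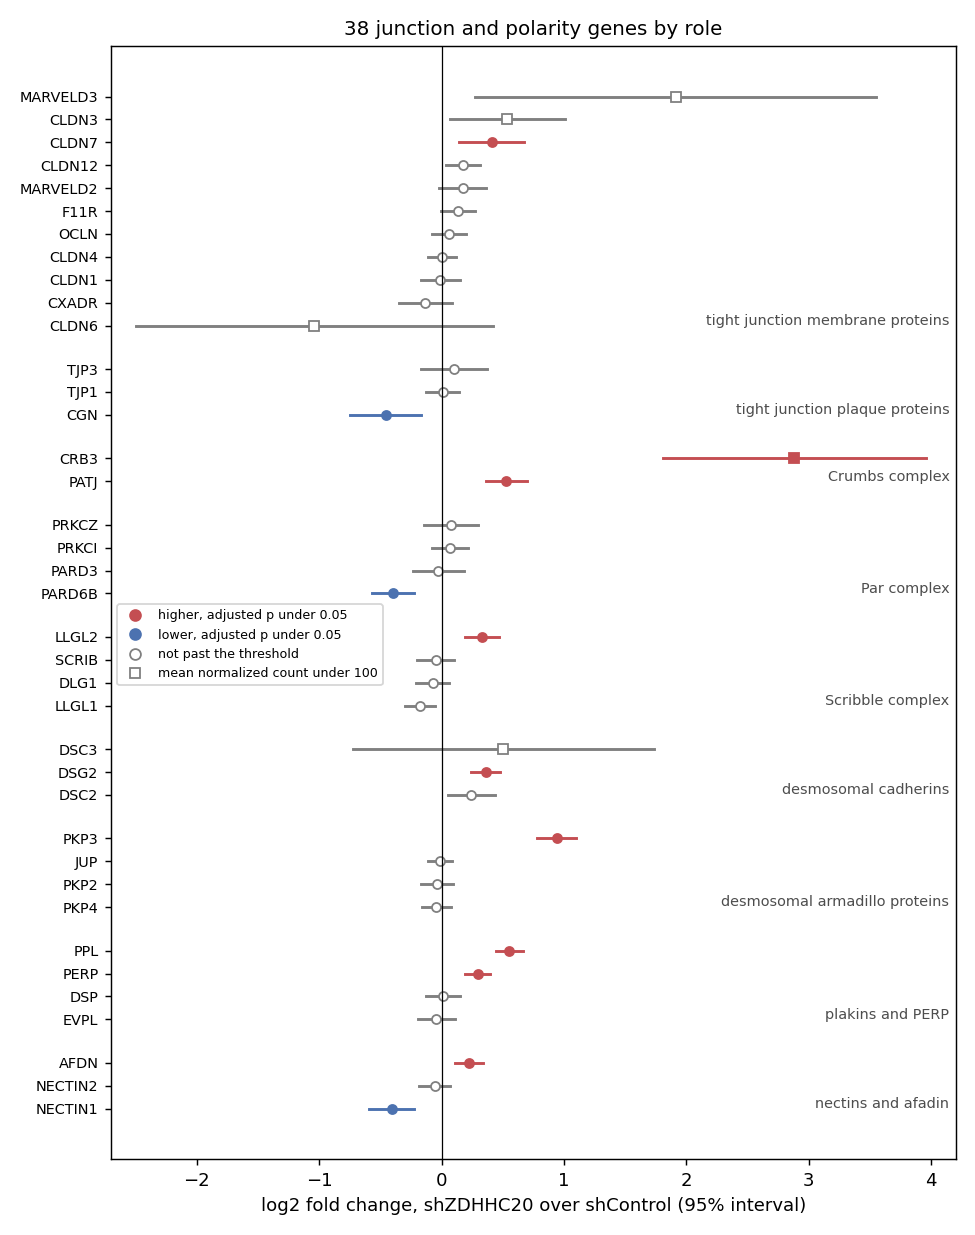
The x axis is the log2 fold change of shZDHHC20 over shControl with its 95% interval from limma, 1 row per gene, for the 38 genes tested, grouped by role. Filled red points passed the threshold as higher (9 genes), filled blue points as lower (3 genes), open points did not pass, and squares have a mean normalized count under 100. CRB3 has the highest fold change with a wide interval, from 1.81 to 3.95.

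Of the 11 tight junction membrane proteins, only CLDN7 passed with all 6 libraries, and CLDN12 joined it without replicate 2. CLDN7, a claudin of simple epithelia, was at 786, 800.5 and 813 in shControl replicates 1, 2 and 3 and at 990.0, 1382 and 876 in shZDHHC20 replicates 1, 2 and 3. The groups did not overlap, and replicate 2 was the highest of the silenced libraries by a wide margin. The log2 fold change was 0.41 (SE 0.124, adjusted p = 0.0494), and without replicate 2 it was 0.22 (adjusted p = 0.0220). The gene passed in 6 of the 15 alternative settings, and it did not pass without any 1 of the control libraries or without shZDHHC20 replicate 1 (adjusted p up to 0.159). Within each library, the CLDN7 value over that of CLDN4, another claudin, was 0.201, 0.205 and 0.204 in shControl and 0.262, 0.325 and 0.229 in shZDHHC20, a ratio chosen after the values were seen and not tested. The exons of CLDN7 overlap those of ELP5 on the other strand. ELP5 was at 840, 880 and 818 in shControl and at 780, 918 and 746 in shZDHHC20. Whether the counting used strand is not given, so reads of CLDN7 and ELP5 may not have been separated.

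The remaining claudins did not pass. CLDN4, which lies next to CLDN3 on chromosome 7, was at 3921, 3901 and 3978 in shControl and at 3784, 4260 and 3828 in shZDHHC20. Its groups overlapped, with a log2 fold change of 0.01 and a 95% interval from -0.11 to 0.12. CLDN1 had a log2 fold change of -0.01 (95% interval -0.17 to 0.15). CLDN12 was at 729, 700.0 and 733 against 818, 792 and 836, without overlap, and its log2 fold change of 0.18 did not pass with all libraries (adjusted p = 0.102) but did without replicate 2 (0.20, adjusted p = 0.0240). CLDN3 ranged from 38.05 to 60.6 in shControl and from 63.9 to 84.7 in shZDHHC20 (adjusted p = 0.147). CLDN6 was low, from 4.02 to 12.1 against 2.82 to 5.30, with overlapping groups.

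Occludin and the related MARVEL-domain proteins did not pass either. OCLN was at 1114, 1132 and 1207 against 1273, 1139 and 1200.0, with overlap and a log2 fold change of 0.06 (adjusted p = 0.599). MARVELD2, which seals the corners where 3 cells meet, was at 299, 281 and 290.4 against 341, 309.9 and 331, without overlap (log2 fold change 0.17, adjusted p = 0.260). MARVELD3 was at 2.02, 6.03 and 1.0 against 11.7, 9.39 and 6.74. These groups did not overlap either, but the values were low and the log2 fold change of 1.91 had a 95% interval from 0.27 to 3.55 (adjusted p = 0.137). The adhesion proteins F11R (JAM-A) and CXADR had log2 fold changes of 0.13 and -0.13 (adjusted p = 0.234 and 0.476).

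Of the plaque proteins, CGN fell while TJP1 and TJP3 did not pass. CGN, cingulin, which links the plaque to actomyosin, was at 288, 278 and 344 in shControl and at 184, 266 and 217 in shZDHHC20. The highest silenced library, replicate 2, lay just under the lowest control library. The log2 fold change was -0.46 (SE 0.134, adjusted p = 0.0431), and without replicate 2 it was -0.59 (adjusted p = 0.00202). CGN passed in 7 of the 15 alternative settings, and leaving out any library other than replicate 2 ended the call (adjusted p up to 0.209). TJP1 (ZO-1), the scaffold to which claudins and occludin bind, was at 2778, 2824 and 2944 against 3019.8, 2599.5 and 3003, with overlap, a log2 fold change of 0.01 and a 95% interval from -0.12 to 0.14. TJP3 (ZO-3) had a log2 fold change of 0.10 (adjusted p = 0.679).

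Both members of the Crumbs complex on the list rose. CRB3, the Crumbs protein of epithelial cells, was at 2.02, 4.02 and 4.0 in shControl and at 27.6, 24.4 and 21.2 in shZDHHC20. All silenced libraries were far above all controls, although the control values were close to 0. The means were 3.35 ± 1.15 and 24.4 ± 3.19 (SD, n = 3), with a log2 fold change of 2.88 (SE 0.496, adjusted p = 0.00209). CRB3 passed in all 15 alternative settings, with log2 fold changes between 2.57 and 3.04. The gene lies on the plus strand at chr19:6463777-6467221 (GENCODE 29, GRCh38), and its exons overlap those of DENND1C on the other strand. DENND1C was at 15.2, 14.1 and 9.01 against 23.3, 23.5 and 16.4 (log2 fold change 0.74, adjusted p = 0.259). The libraries were strand-specific per the labels, but whether the counting used strand is not given in the sources used here, so reads of this pair may not have been separated.

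PATJ, the multi-PDZ scaffold that joins the Crumbs complex to tight junctions, was at 810.4, 759 and 861 in shControl and at 1173, 1058 and 1284 in shZDHHC20. All 3 silenced libraries were above all 3 controls. The log2 fold change was 0.53 (SE 0.0789, adjusted p = 0.000753). PALS1, which bridges CRB3 and PATJ and was taken from the wider list of junction genes, went the other way, from 2134, 2108 and 2077 to 1820.0, 1772 and 1898 (log2 fold change -0.20, adjusted p = 0.0237).

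The promoters of the 3 genes are shown because they belong to the Crumbs protein, its partner and the claudin that rose. Each is the 300-base RefSeq window on GRCh38.p14, from 250 bases before to 50 bases after the start, read 5′ to 3′ on the strand of the gene. The CRB3 window is chr19:6464021-6464320 on the plus strand, the CLDN7 window chr17:7262429-7262728 on the minus strand and the PATJ window chr1:61742230-61742529 on the plus strand. Capitals mark CAGGTG, in either orientation (CAGGTG or CACCTG), the E-box letters that ZEB and SNAI repressors are known to bind.
CRB3: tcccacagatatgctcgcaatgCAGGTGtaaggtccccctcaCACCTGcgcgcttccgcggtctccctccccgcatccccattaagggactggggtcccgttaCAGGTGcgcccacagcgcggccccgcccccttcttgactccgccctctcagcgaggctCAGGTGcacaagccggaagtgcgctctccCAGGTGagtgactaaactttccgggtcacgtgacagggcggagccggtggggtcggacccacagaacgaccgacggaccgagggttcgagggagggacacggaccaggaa
CLDN7: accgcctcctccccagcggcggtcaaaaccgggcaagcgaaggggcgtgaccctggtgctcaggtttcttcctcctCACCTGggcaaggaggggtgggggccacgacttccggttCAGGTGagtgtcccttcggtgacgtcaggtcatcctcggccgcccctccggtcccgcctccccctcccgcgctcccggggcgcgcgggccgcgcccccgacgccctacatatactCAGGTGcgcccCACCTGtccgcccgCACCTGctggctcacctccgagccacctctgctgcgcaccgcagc
PATJ: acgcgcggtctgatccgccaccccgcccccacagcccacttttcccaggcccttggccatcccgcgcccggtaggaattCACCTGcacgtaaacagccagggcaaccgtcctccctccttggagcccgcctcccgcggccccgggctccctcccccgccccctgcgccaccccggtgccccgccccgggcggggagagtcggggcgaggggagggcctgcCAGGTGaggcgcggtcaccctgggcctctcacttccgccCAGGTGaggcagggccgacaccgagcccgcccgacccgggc

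The CRB3 window held 5 matches, which began at positions -228, -208, -147, -89 and -60 from the start. The CLDN7 window also held 5, at -174, -135, -20, -9 and 6, and the PATJ window 3, at -171, -30 and 10. A second RefSeq window of CLDN7 held 0, and the window with the most matches was the one printed, so its count of 5 was selected. As many as 5 matches were found in 33 of 35116 RefSeq promoters (0.0940%), and at least 1 in 20.6% of them. Among RefSeq windows with at least 60% G and C, 0.152% held 5 or more. RefSeq windows were matched for 27 of the 39 listed genes, with 43 windows in all, and 41.9% of these windows held the letters. Members had mostly GC-rich windows, and among windows with at least 60% G and C the shares were 48.6% of 37 for the members and 21.9% of 16447 for all. Counted per gene, over any of its windows, the letters were in 16 of the 27 listed genes (59.3%) and in 24.1% of all genes with a window. The letters were found in 5 of 6 genes that rose, in 0 of 1 that fell and in 10 of 19 that did not pass, so they were also common among members whose level did not change past the threshold. The grainyhead letters AACNNGTT occurred in 1 of the 27 genes (4.36% of all genes with a window), TATAAA in 0 (14.0%) and the GC box GGGCGG in 25 (48.3%). Among the GC-rich windows, GGGCGG was in 83.8% of those of members and 78.1% of all, TATAAA in 0 and 2.80%, and AACNNGTT in 2.70% and 1.49%. These matches are letters in a window and were not measured as binding. The genes with no entry in the table used were NECTIN1, PARD3, EVPL, LLGL2, CXADR, PARD6B, MARVELD3, F11R, SCRIB, PPL, PKP3 and PKP2.

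In the Par complex, 1 of 4 genes passed. PARD6B, a Par6 adaptor that holds atypical protein kinase C to its partners, was at 649.7, 691 and 676 in shControl and at 563, 474 and 499 in shZDHHC20. All 3 silenced libraries were below all 3 controls. The log2 fold change was -0.40 (SE 0.0800, adjusted p = 0.00611). Its relatives PARD6A and PARD6G did not pass (log2 fold changes 0.03 and -0.04). The kinases PRKCI and PRKCZ had log2 fold changes of 0.07 and 0.08 (adjusted p = 0.595 and 0.704). The scaffold PARD3 was at 967, 963 and 973 against 1065, 786 and 1024, with replicate 2 as the low silenced library. Its log2 fold change was -0.03 with all libraries and 0.11 without replicate 2, and it passed in neither.

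In the Scribble complex, LLGL2 rose, and its paralog LLGL1 had a negative fold change that did not pass. LLGL2, a basolateral protein that Par-complex kinase phosphorylates, was at 1074, 1076 and 983 in shControl and at 1286, 1393 and 1265 in shZDHHC20. The groups did not overlap, and the log2 fold change was 0.33 (SE 0.0650, adjusted p = 0.00490). LLGL1 was at 1660.2, 1561 and 1601 against 1376, 1464 and 1428, also without overlap. Its log2 fold change of -0.18 did not pass with all libraries (adjusted p = 0.0631) but did without replicate 2 (-0.20, adjusted p = 0.00711) and with a minimum mean of 10 (adjusted p = 0.0406). The ratio of LLGL2 to LLGL1 within a library was 0.647, 0.689 and 0.614 in shControl and 0.935, 0.951 and 0.886 in shZDHHC20, a pair chosen after the values were seen. The exons of LLGL1 overlap those of FLII on the other strand, which was higher in shZDHHC20 (log2 fold change 0.29, adjusted p = 0.00407). SCRIB and DLG1 had log2 fold changes of -0.05 and -0.07, and SCRIB passed only without replicate 2 (-0.13, adjusted p = 0.0387).

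**Figure D2:**
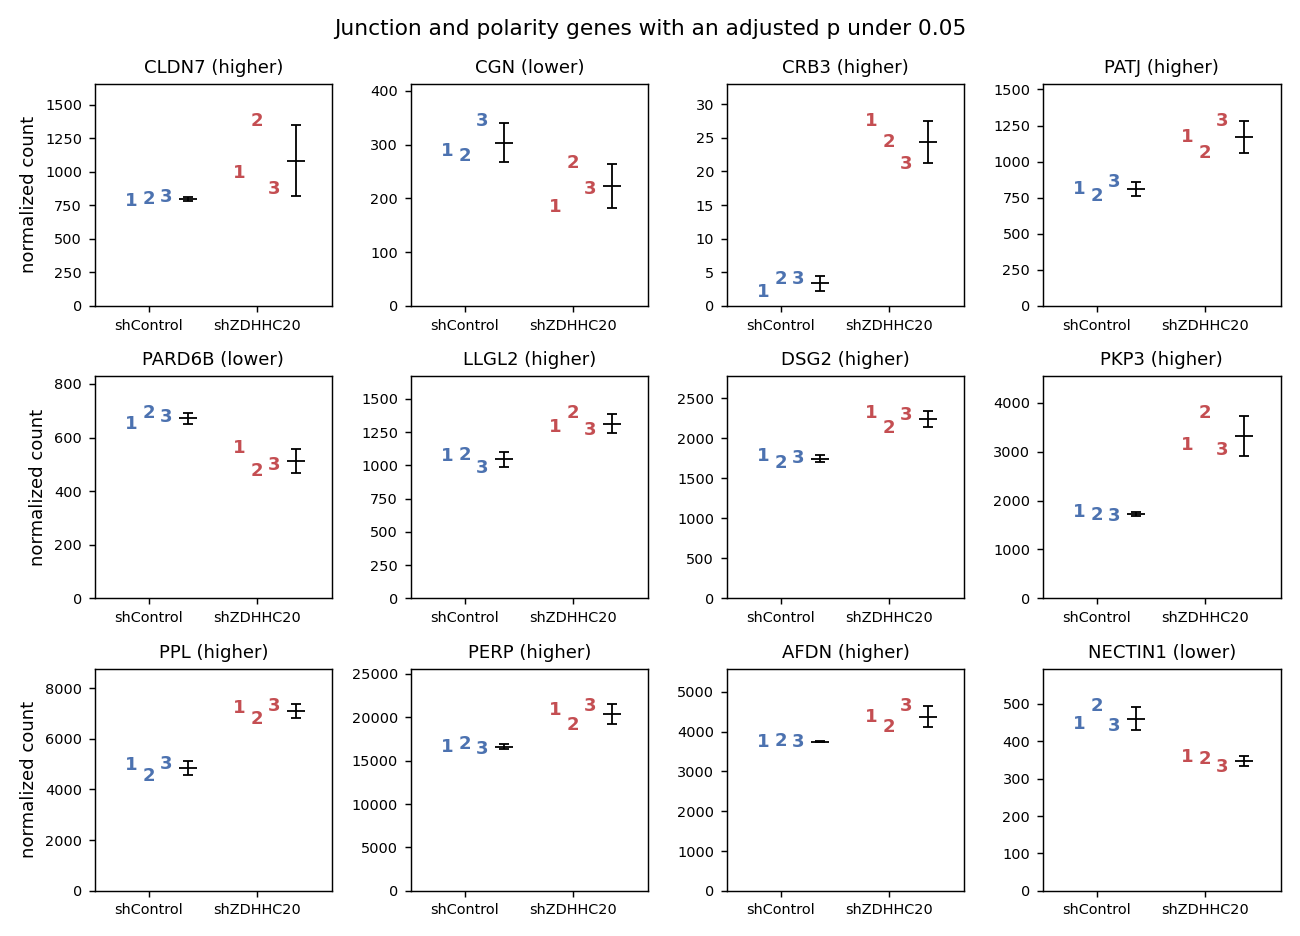
Normalized counts of the 12 genes past the threshold in each library, 1 panel per gene with a linear y axis from 0. Digits mark the replicate numbers, blue for shControl and red for shZDHHC20, and the bars give the mean and SD of 3 libraries. In every panel the digits of the 2 groups do not overlap, and replicate 2 stands well above the other silenced libraries for CLDN7.

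Of the desmosomal cadherins, DSG2 rose. DSG2, the desmoglein found in all desmosome-bearing tissues, was at 1780.4, 1694 and 1752 in shControl and at 2311, 2129 and 2286 in shZDHHC20. The groups did not overlap, with a log2 fold change of 0.36 (SE 0.0549, adjusted p = 0.000836). Its partner cadherin DSC2 was at 612, 606 and 747 against 776, 717 and 828. One control library lay above one silenced library, and the log2 fold change of 0.24 did not pass with all libraries (adjusted p = 0.107) but did without replicate 2 (0.30, adjusted p = 0.0217) and without shControl replicate 3, the highest control library (0.34, adjusted p = 0.0449). The ratio of DSG2 to DSC2, a pair also chosen after the values were seen, overlapped between the groups. DSC3 was low, from 5.01 to 6.03 in shControl and from 5.63 to 11.7 in shZDHHC20.

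Of the armadillo proteins, PKP3 stood out from its relatives. PKP3, plakophilin 3, which clusters desmosomal components at the membrane, was at 1771, 1702 and 1695 in shControl and at 3141, 3789 and 3031 in shZDHHC20. All silenced libraries were far above all controls. The means were 1723 ± 42.1 and 3320.5 ± 409.8 (SD, n = 3), with a log2 fold change of 0.94 (SE 0.0738, adjusted p = 7.39e-06), the smallest adjusted p of the 38 genes. The call held in all 15 alternative settings. Its relatives PKP2 and PKP4 had log2 fold changes of -0.04 each (adjusted p = 0.763 and 0.704). The ratio of PKP3 to PKP2 was 1.16, 1.13 and 1.11 in the control libraries and 1.98, 2.72 and 2.06 in the silenced ones. This pair too was chosen after the values were seen, and its ratio was not tested. JUP, plakoglobin, which desmosomes share with adherens junctions, was at 5084, 4870.1 and 4995 against 4984, 4791 and 5031, with overlap and a 95% interval of the log2 fold change from -0.11 to 0.08.

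Of the plakins, PPL rose and its relatives did not. PPL, periplakin, a linker to intermediate filaments, was at 4965, 4542 and 5016 in shControl and at 7212, 6793 and 7303 in shZDHHC20. The groups were well apart, with a log2 fold change of 0.55 (SE 0.0519, adjusted p = 2.27e-05), and the gene passed in all 15 alternative settings. EVPL, envoplakin, which is known to pair with periplakin, was at 808, 730.2 and 789 against 738, 800.1 and 724, with overlap (log2 fold change -0.04, adjusted p = 0.783). The ratio of PPL to EVPL, also chosen after the values were seen, was 6.14, 6.22 and 6.36 in shControl and 9.78, 8.49 and 10.1 in shZDHHC20. DSP, desmoplakin, the main link of desmosomes to keratin, was at 2715, 2815 and 2669 against 2823, 2503 and 2963, with overlap, a log2 fold change of 0.01 and a 95% interval from -0.12 to 0.15. PERP, a desmosomal membrane protein and p53 target, was at 16589.9, 16876 and 16390.0 in shControl and at 20803, 19089.8 and 21326 in shZDHHC20. These groups did not overlap, and the rise was small, with a log2 fold change of 0.29 (SE 0.0467, adjusted p = 0.00119).

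Of the nectin and afadin genes, AFDN was higher, NECTIN1 was lower and NECTIN2 did not pass. AFDN, afadin, which couples nectins to actin, was at 3744, 3765 and 3737 in shControl and at 4374, 4112 and 4652 in shZDHHC20. All silenced libraries were above all controls. The log2 fold change was 0.22 (SE 0.0523, adjusted p = 0.0145), the smallest in size of the 12 that passed, and it passed in 9 of the 15 alternative settings. Leaving out any library other than shZDHHC20 replicate 2 ended the call of AFDN (adjusted p up to 0.0800). NECTIN1 was at 446, 495 and 442 against 357, 353 and 331. These groups did not overlap, and the log2 fold change was -0.41 (SE 0.0843, adjusted p = 0.00690). Without shControl replicate 2, the highest control library, NECTIN1 did not pass (adjusted p = 0.0563). NECTIN2 was at 2408, 2391 and 2666 against 2291, 2522 and 2364, with overlap (log2 fold change -0.06, adjusted p = 0.625).

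Among genes whose mean reached 100, 22 did not pass, and their 95% intervals for the log2 fold change lay between -0.35 and 0.44. A change within its interval was not shown to be absent in any of them.

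Levels can be compared between genes only per length, so normalized counts were divided by exon length in kilobases (GENCODE 29). In shControl, PERP had the highest level with 3874 per kilobase, followed by JUP with 1008, CLDN4 with 836, NECTIN2 with 664, PPL with 630 and PKP3 with 455. With silencing, PPL stood at 924 and PKP3 at 877 per kilobase. The lowest levels of tested genes in shControl were those of CLDN6 (4.63), CRB3 (2.10), DSC3 (0.760) and MARVELD3 (0.468). CRB3 was at 15.3 per kilobase in shZDHHC20, still below every member whose mean reached 100. Exons of F11R, CLDN7, CLDN12 and SCRIB overlap other annotated genes on the same strand, where reads may be left uncounted. Among the wider junction genes, CDC42, which every cell uses, has such an overlap too and was at only 3.01 to 18.8, so the level of such genes may be too low. On the other strand, the low genes MARVELD3 and CLDN6 overlap PHLPP2 (443 to 473 in shControl) and TNFRSF12A (1902 to 2147 in shControl). The effect of the overlaps was not tested.

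**Figure D3:**
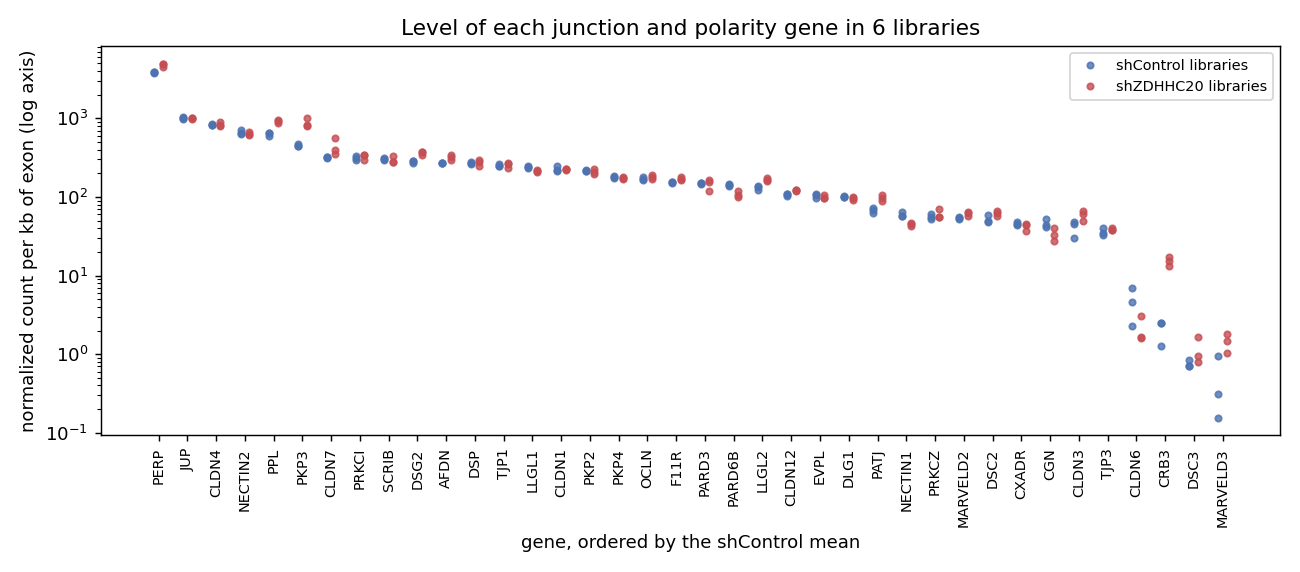
Normalized count per kilobase of exon on a log axis for the 38 tested genes, ordered by the shControl mean, with 1 point per library (blue shControl, red shZDHHC20). PERP is the highest in both groups, and CLDN6, CRB3, DSC3 and MARVELD3 lie well below the others in shControl.

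The silenced libraries themselves differed in these genes. In the 33 genes whose mean reached 100, shZDHHC20 replicate 2 was above both other silenced libraries in 11 and below both in 21. The median absolute log2 difference of replicate 2 from the mean of replicates 1 and 3 was 0.133, and that between replicates 1 and 3 was 0.0452. The widest differences upwards were those of CLDN7 (0.57), CGN (0.41) and PRKCZ (0.34), and the widest downwards those of PARD3 (-0.41) and CXADR (-0.27). Replicate 2 was lower in the longest genes, with a Spearman correlation with exon length of -0.39 over the 33 genes and -0.22 over 10908 genes. These correlations are over genes within the same 3 libraries and are descriptions only. Between replicates 1 and 3 the values were -0.41 over the 33 genes and -0.02 over the 10908. Mitochondrial genes made up 4.01% of replicate 2 and 5.28% to 5.52% of the other libraries. Without replicate 2, the 12 genes all passed and CLDN12, LLGL1, SCRIB and DSC2 passed as well. Leaving it out also raised the count over all genes, from 2541 of 22189 tested to 4454 of 22258. The part of this library's difference in the results was not tested beyond leaving it out.

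**Figure D4:**
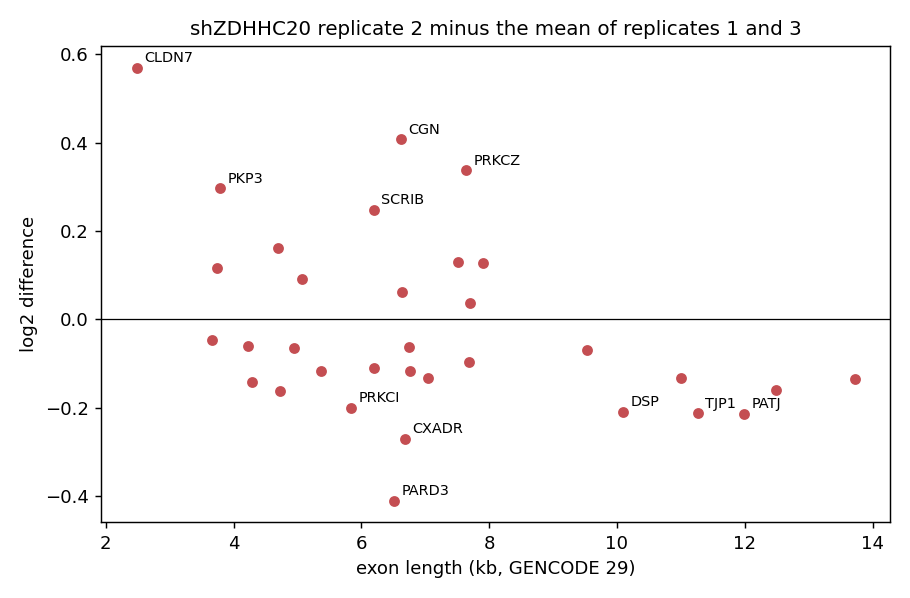
Log2 difference of shZDHHC20 replicate 2 from the mean of replicates 1 and 3 (y axis) against exon length in kilobases (x axis), 1 point per gene, for the 33 genes whose mean reached 100. CLDN7 has the highest difference (0.57) and PARD3 the lowest (-0.41), and all 6 genes longer than 10 kilobases lie below 0.

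Of a wider list of 75 other junction genes, 67 were in the table and 59 were tested. In these 59, 2 were higher and 8 lower (16.9%), and the median log2 fold change was -0.03. The share was 11.5% for all genes tested (4.61% higher and 6.84% lower). For those whose mean reached 100 it was 21.7% (8.41% higher and 13.3% lower). GJA1, the gap junction protein connexin 43, was at 1634, 1587 and 1621 in shControl and at 2083, 2016 and 2266 in shZDHHC20 (log2 fold change 0.39, adjusted p = 0.000685). JAM3, AMOT, a PATJ-binding angiomotin, and ARHGEF2, which cingulin is known to bind, had log2 fold changes of -0.33, -0.52 and -0.20 (adjusted p = 0.00246, 0.00510 and 0.0120).

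Of 19 regulators of junction genes, 17 were tested, and 2 were higher and 2 lower (23.5%, beside 11.5% of all genes tested and 21.7% of those whose mean reached 100). ELF3, an epithelial ETS factor, rose from 1122, 1109.8 and 1182 to 1556, 1766 and 1542 (log2 fold change 0.51, adjusted p = 0.000270). The splicing factor ESRP2 rose (0.50, adjusted p = 0.00258), and GRHL3, a grainyhead factor, fell (-0.39, adjusted p = 0.00103). ZEB1, a repressor of epithelial genes, was at 594, 583 and 608 in shControl and at 499, 466 and 496 in shZDHHC20 (log2 fold change -0.29, adjusted p = 0.0200). KLF4 and SNAI2 did not pass (-0.27 and 0.26, adjusted p = 0.0535 and 0.548), and GRHL2 was not analysed here.

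Markers of other cells were read beside these genes. Of 8 epithelial markers, 4 were higher in shZDHHC20 (EPCAM, CDH1, SPINT1 and ST14), beside 4.61% of all genes tested and 8.41% of those whose mean reached 100, while the summed level of the list, mostly keratins 8 and 18, was 81237 to 83266 in shControl and 76567 to 77856 in shZDHHC20. The 5 fibroblast markers in the table summed to 3969 to 4042 and 3195 to 3479, nearly all of it COL1A1, which fell (log2 fold change -0.27, adjusted p = 0.00288), and LUM was at 0 in shControl. The 3 endothelial markers in the table summed to 40.0 to 55.6 and 32.9 to 47.7, and the 3 of white blood cells to 26.0 to 37.4 and 24.4 to 45.1, mostly CD14. The 2 acinar and islet markers in the table, PRSS1 and SST, summed to 1.0 to 4.04 and 4.81 to 12.7, without overlap but near 0 in every library. The part of these markers in the changes of junction genes was not tested, and in bulk RNA a change in the number of cells of a type and in RNA per cell cannot be told apart.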

How the data were processed

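RNA-seq libraries of PANC-1 cells, 3 shControl and 3 shZDHHC20, were read from 1 deposited table. The authors deposited 1 normalized signal per gene in each column, under a file name that says FPKM, yet 100% of values are whole multiples (tolerance 0.1) of the library's smallest value above 0 (0.939 to 1.06), with no division by length. The design had assumed FPKM, and its test was kept. The submitters' processing notes name hg19, and the aligner, counter and normalization are not given in the sources used here. Depth is therefore known only as relative, and no counting intervals are given.

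Symbols came from the reference table (27175 identifiers) and GENCODE 29 (219). Values were analysed as log2(value + 0.1), on which the fold change of a low gene depends on the pseudocount and can differ from the ratio of group means, with limma 3.58.1 in R 4.3.3 (lmFit, eBayes with trend). Genes with a mean of at least 1 were fitted, and two-sided p-values were adjusted over all of them by Benjamini-Hochberg, with a threshold of 0.05. With 3 against 3 libraries an exact permutation test cannot go below 0.1 and was not used. Summaries and plots were made with Python 3.11.15, pandas 2.3.3, scipy 1.17.1 and matplotlib 3.10.9. The scripts were tested on simulated data.

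All 39 listed genes are named. Those past the threshold are given in full, and of the wider lists the 5 genes of smallest adjusted p and GRHL2, ZEB1 and SNAI2, with further genes named for a family, overlap or marker result. Some single genes under this rule are not reported here. The members and lists were chosen with earlier results of these data known, so counts over them are descriptions.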

Additional observations from a re-analysis of the deposited data

How the results depend on the processing

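The 15 alternatives left out each of the 6 libraries in turn, added a replicate block, changed the pseudocount to 0.01 or 1, raised the minimum mean to 10 or dropped it, rescaled by median ratios or by quantiles, used robust moderation, or took no trend of variance on mean. CRB3, PKP3 and PPL passed in all 15, and PATJ, PARD6B, LLGL2, DSG2 and PERP in 14, failing only without the trend. Without the trend, 351 genes passed in all, with 3 junction and polarity genes higher and 0 lower, and 0 other junction genes higher and 1 lower. Leaving out 1 library gave 1233 to 4454 genes in all, the highest count without shZDHHC20 replicate 2, with 7 to 11 junction and polarity genes higher and 1 to 5 lower, and 1 to 5 other junction genes higher and 3 to 15 lower. The ZDHHC20 fold change ranged from -1.27 to -1.17 on the log2 scale.

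The labels give both groups the same replicate numbers. Deviations of same-numbered libraries from their group means had correlations of -0.0518, -0.0562 and -0.0215 over 15101 genes. With 3 libraries per group, such correlations cannot show whether same-numbered libraries were prepared together. With a replicate block, 1942 genes passed, with 9 junction and polarity genes higher and 3 lower, and 2 other junction genes higher and 7 lower.

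Changes of sign were seen in 8 genes, none past the threshold in any of the settings that turned it. On leaving out 1 library, log2 fold changes ranged from -0.0583 to 0.0603 for CLDN1, -0.0473 to 0.0381 for CLDN4, -0.0273 to 0.0808 for TJP1, -0.109 to 0.110 for PARD3, -0.0340 to 0.139 for PRKCZ, -0.0869 to 0.00625 for PKP2, -0.0304 to 0.00731 for JUP and -0.0399 to 0.0818 for DSP. CLDN1 was at 0.00664 with quantile normalization. The cause of the other changes was not tested.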
